A study of Mus musculus with 16 samples.

Results

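The 9 complement genes *C6*, *C7*, *C1qa*, *C1qb*, *C1qc*, *C2*, *C4b*, *C3* and *Cfb* were followed by bulk RNA sequencing through cells isolated from the mouse gut wall. They were taken by name, 9 of the 35647 gene identifiers in the table, and were chosen by the CPM levels of *C6* in ileum and colon, set beside those of the other components. The tissue difference is therefore described here without a test. The choice did not compare the bacterial strains, and the strain effect was tested. The genes were, however, chosen with earlier results of these data known. All animals were genetically wild-type mice raised germ free and then colonized for 5 weeks with a single bacterium, *Bifidobacterium breve*, either the Δchat strain, which does not make acetylcholine, or the WT strain. From 4 mice per strain the lamina propria cells labelled as immune were taken on a Percoll gradient of 40% and 80%, and the 4 groups of 4 libraries were ileum Δchat, ileum WT, colon Δchat and colon WT. The age and mouse strain are not given in the sources used here. A mouse with 1 bacterial species is a reduced model: every group, the WT one included, lacks the rest of the gut flora.

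Complement is a cascade of mostly soluble proteins that tag microbes and dying cells. C1q, built of A, B and C chains, starts the classical pathway on bound antibody, and through its proteases it cleaves C4 and C2. Factor B, encoded by *Cfb*, performs the matching step of the alternative pathway, and all routes converge on C3, whose fragments coat the target. Cleavage of C5 then lets C6, C7, C8 and C9 assemble into the membrane attack complex. The liver makes most plasma complement, while C1q comes largely from macrophages and dendritic cells, and fibroblasts of many tissues make C3 and C4.

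The promoters of *C6*, *C1qb* and *C1qc* are shown because these genes carry the tissue contrast, *C6* alone and the C1q genes together. Each line gives the 250 bases before the transcription start from RefSeq, build GRCm38.p6, on the strand of the gene. *C6* lies on the plus strand at chr15:4726960-4727209, and *C1qb* and *C1qc* lie on the minus strand at chr4:136886201-136886450 and chr4:136892915-136893164. Capitals mark the letters GAGGAA, a core recognised by the myeloid factor PU.1, or their reverse complement.
C6: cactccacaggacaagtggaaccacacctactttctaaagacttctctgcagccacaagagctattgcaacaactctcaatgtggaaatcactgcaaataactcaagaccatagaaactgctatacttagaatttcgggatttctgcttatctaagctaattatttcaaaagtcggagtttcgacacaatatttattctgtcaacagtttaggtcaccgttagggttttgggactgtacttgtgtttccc
C1qb: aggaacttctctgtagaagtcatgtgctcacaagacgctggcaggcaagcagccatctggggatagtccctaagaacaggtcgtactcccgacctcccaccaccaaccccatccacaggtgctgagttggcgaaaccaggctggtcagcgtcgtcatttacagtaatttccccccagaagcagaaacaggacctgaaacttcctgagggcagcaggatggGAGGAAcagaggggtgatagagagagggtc
C1qc: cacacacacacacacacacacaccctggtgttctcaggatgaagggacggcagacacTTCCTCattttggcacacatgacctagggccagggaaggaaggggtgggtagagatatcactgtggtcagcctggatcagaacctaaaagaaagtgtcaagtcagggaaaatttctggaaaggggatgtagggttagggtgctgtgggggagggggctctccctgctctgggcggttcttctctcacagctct
GAGGAA stood 30 to 25 bases before the start of *C1qb*, and on the opposite strand 193 to 188 bases before the start of *C1qc*. No match lay in the windows of *C6*, *C3* or *C7*, the other genes with an entry, and 23.3% of 32851 mouse promoters of the same length held a match on either strand. The Maf-type letters TGCTGAC (3.81% of promoters), the core of the interferon-stimulated element (2.98%) and an NF-kB type site (4.11%), searched on both strands, were found in none of the 5 windows. The C+G content was 40.0% for *C6*, 55.2% for *C1qb* and 54.0% for *C1qc*. *C1qa*, *C2*, *C4b* and *Cfb* were not analysed here for promoter sequence.

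The 16 libraries held 15.9 to 23.6 M estimated counts and 17261 to 18206 genes with a count. Distal-gut Hox genes (*Hoxd13*, *Hoxb13*, *Hoxd12*) summed to at most 0.225 CPM in ileum and to at least 4.13 CPM in colon, as the tissue labels say. The pan-leukocyte markers, 5 of 5 above 0 in each library, summed to 1701 to 3815 CPM. The labelled immune cells also held stromal RNA: 8 fibroblast markers, none at 0, summed to 884 to 6412 CPM in ileum Δchat, 4122 to 6656 in ileum WT, 3923 to 6652 in colon Δchat and 3995 to 8715 in colon WT. The 10 epithelial markers summed to at most 417 CPM except in colon Δchat replicate 3, at 3369 CPM, and in colon they were higher in each Δchat library than in each WT library. Hepatocyte markers reached at most 12.9 CPM, with *Fgb* at 0 in each library. In bulk RNA, fewer cells of a type and less RNA per cell cannot be told apart.

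*C6*, a building block of the membrane attack complex, was an ileal transcript in both colonizations. In ileum Δchat its levels were 15.2, 29.4, 18.1 and 7.33 CPM, and in ileum WT they were 31.1, 20.3, 30.9 and 26.6 CPM. In colon Δchat they were 0.309, 0.222, 0.292 and 0.252 CPM, and in colon WT 0.164, 0.225, 0.399 and 0.564 CPM. The lowest ileal library thus lay above each colonic one, and the colonic values rest on 5 to 7 counts per library with Δchat and 3 to 10 with WT. Summed over 4 libraries, ileum held 1365 counts and colon 24 with Δchat, and ileum held 2052 and colon 28 with WT. The ratio of mean CPM, ileum over colon, was 65.1 with Δchat and 80.6 with WT. The fitted log2 differences were 5.99 and 6.31 in the same order (n = 4 per group).

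*C7*, the component that joins the growing complex just after C6, did not share this pattern. It stood at 15.4, 7.35, 73.3 and 29.8 CPM in ileum Δchat and at 90.4, 66.2, 85.2 and 64.4 CPM in ileum WT. In colon Δchat it stood at 35.7, 42.2, 37.8 and 58.9 CPM, and in colon WT at 24.6, 77.5, 65.9 and 33.1 CPM. Ileum and colon overlapped in both colonizations, with log2 differences of -0.47 for Δchat and 0.60 for WT. The Δchat value moved with the alternatives: it was -1.32 without ileum Δchat replicate 3, -0.93 with the mouse as a block and 0.71 with the fibroblast score as a covariate. The ratio of *C6* to *C7*, each in CPM, was 0.246 to 4.00 in ileum Δchat and 0.306 to 0.414 in ileum WT, against 0.00428 to 0.00865 in colon Δchat and 0.0029 to 0.017 in colon WT. The highest ratio came from ileum Δchat replicate 2, the library with the lowest *C7*. The other terminal genes were scarce: *Hc*, the mouse gene for C5, averaged at most 0.766 CPM in a group and *C8g* at most 0.624 CPM, while *C8b* was at 0 in all 16 libraries.

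**Figure D1:**
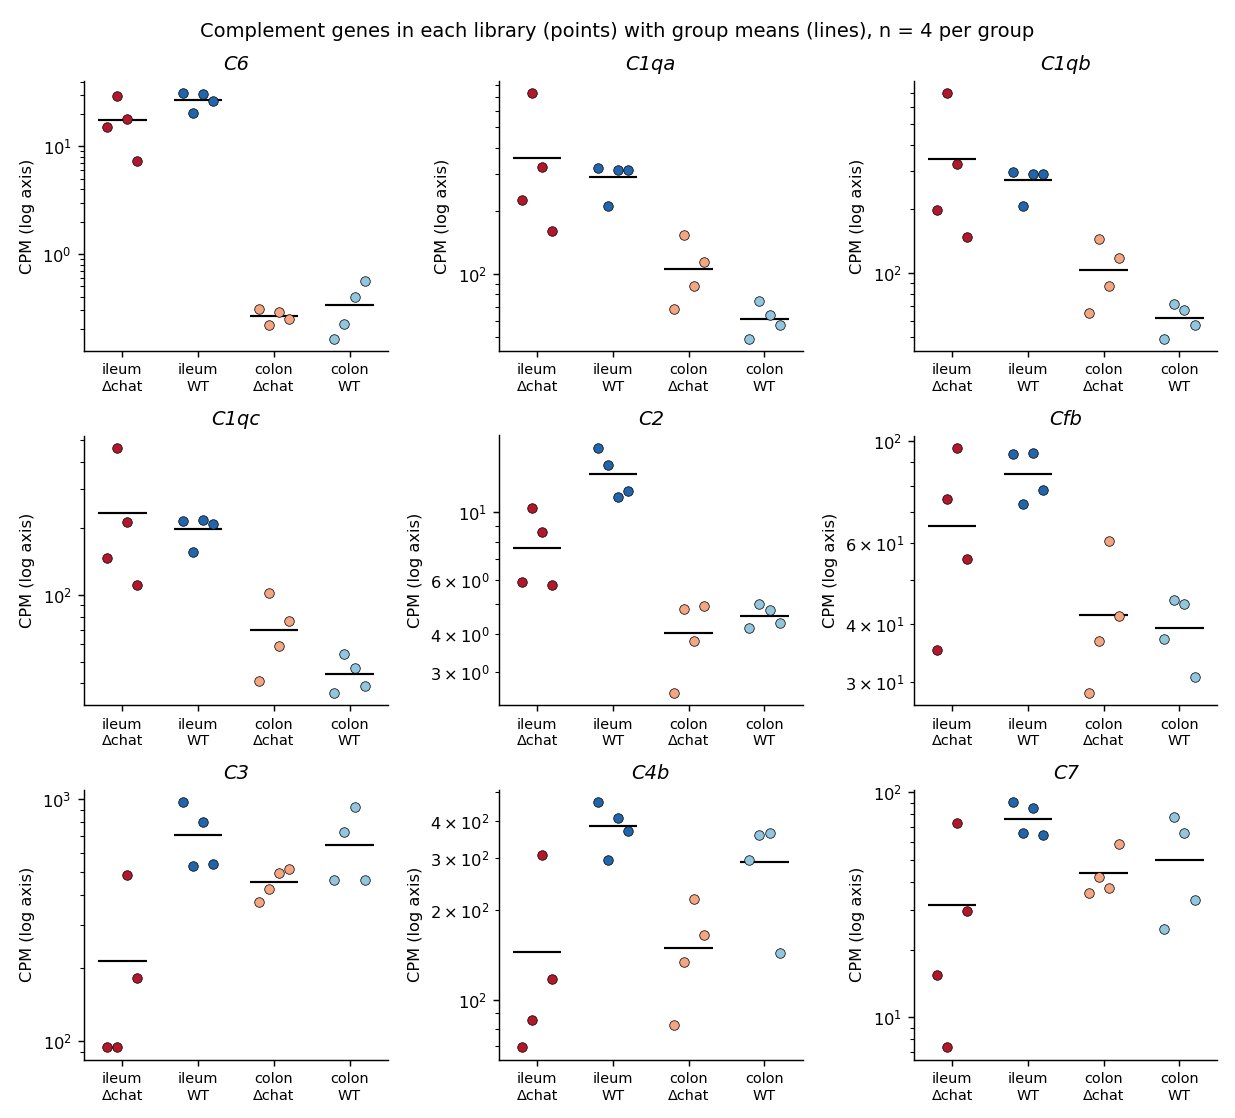
Level of each of the 9 complement genes in TMM-scaled CPM on a log axis, 1 point per library, for ileum Δchat, ileum WT, colon Δchat and colon WT (4 libraries each). *C6* lies between 7.33 and 31.1 CPM in ileum and below 0.6 CPM in colon, whereas *C3*, *C4b* and *C7* overlap between tissues.

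The 3 C1q genes, each encoding 1 chain of the recognition molecule, were higher in ileum too, and they moved as a unit. *C1qa* was at 225, 727, 324 and 161 CPM in ileum Δchat and at 319.6, 211, 313 and 314 CPM in ileum WT. In colon Δchat it was at 67.9, 154, 87.6 and 115 CPM, and in colon WT at 49.3, 74.2, 63.9 and 57.3 CPM. The tissues did not overlap in either colonization, although the lowest ileum Δchat library, 161 CPM, stood close to the highest colon Δchat library, 154 CPM. *C1qb* ranged over 148 to 698 CPM in ileum Δchat and 206 to 299 CPM in ileum WT, against 65.4 to 145 CPM in colon Δchat and 49.4 to 71.5 CPM in colon WT. *C1qc* ranged over 111 to 462 CPM in ileum Δchat and 156 to 217 CPM in ileum WT, against 41.0 to 103 CPM in colon Δchat and 36.2 to 54.3 CPM in colon WT. Ileum over colon, the log2 differences were 1.72 to 1.76 with Δchat and 2.15 to 2.24 with WT, and without ileum Δchat replicate 2 they were 1.11 to 1.18 with Δchat.

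Within the summed C1q signal the chains kept nearly fixed shares. *C1qa* made up 38.5 ± 0.78% in ileum Δchat, 37.9 ± 0.72% in ileum WT, 37.9 ± 0.86% in colon Δchat and 36.7 ± 0.65% in colon WT (SD, n = 4). *C1qb* averaged 35.8% to 37.3% and *C1qc* 24.8% to 26.4% over the 4 groups. Ileum Δchat replicate 2, the library with the highest C1q sum (1887 CPM), held the chains in the same proportions as the rest. Macrophage markers moved with C1q: 10 of 10 were above 0 in each library, and their sum was 563 to 2411 CPM in ileum Δchat, 890 to 1216 in ileum WT, 311 to 580 in colon Δchat and 233 to 317 in colon WT. C1q per unit of that sum was 0.768 ± 0.016 in ileum Δchat, 0.702 ± 0.054 in ileum WT, 0.622 ± 0.054 in colon Δchat and 0.618 ± 0.026 in colon WT (SD, n = 4). The part of macrophage RNA in the C1q difference was not tested.

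**Figure D2:**
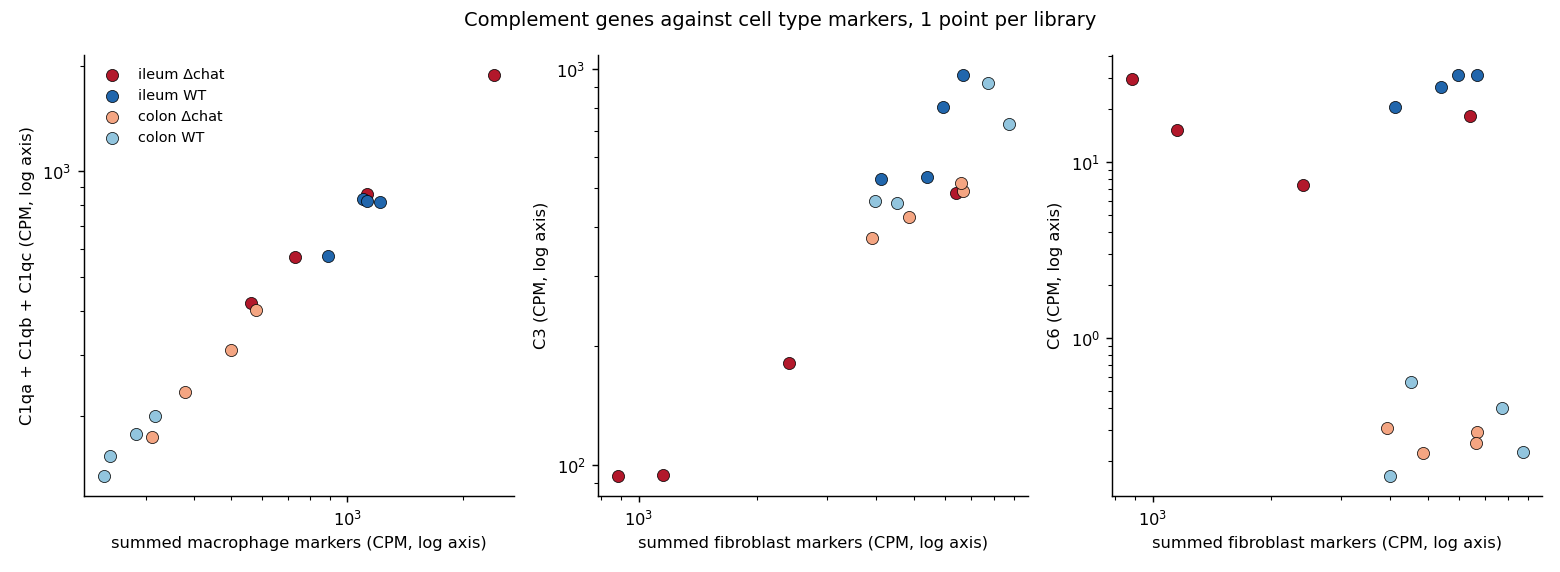
Summed C1q CPM against summed macrophage markers, and *C3* and *C6* against summed fibroblast markers, all in CPM on log axes, 1 point per library in the 4 groups. C1q follows the macrophage sum over all 16 libraries and *C3* follows the fibroblast sum, while *C6* splits by tissue at like fibroblast sums.

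*C2* and *Cfb*, neighbouring genes for the proteases that complete the classical and the alternative C3 convertase, had smaller tissue differences. *C2* was at 5.89, 10.3, 8.61 and 5.79 CPM in ileum Δchat and at 16.2, 14.2, 11.2 and 11.7 CPM in ileum WT, against 2.56 to 4.94 CPM in colon Δchat and 4.16 to 4.99 CPM in colon WT. *Cfb* was at 35.1, 74.7, 96.7 and 55.5 CPM in ileum Δchat and at 93.6, 72.9, 94.3 and 78.4 CPM in ileum WT, against 28.4 to 60.6 CPM in colon Δchat and 30.8 to 45.1 CPM in colon WT. *C2* did not overlap between tissues, and *Cfb* did so only with Δchat. The log2 differences, ileum over colon, were 0.92 with Δchat and 1.54 with WT for *C2*, and 0.65 and 1.11 in the same order for *Cfb*. For *Cfb* with Δchat the difference was 0.38 without ileum Δchat replicate 3 and 1.09 with the fibroblast score as a covariate. The pair are related in sequence and adjacent in the genome. Whether any reads fit both genes was not tested.

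*C3*, the hub of the cascade, and *C4b*, a C4 gene, did not share the ileal pattern. *C3* was at 94.5, 93.8, 486 and 181 CPM in ileum Δchat and at 969, 529, 803 and 536 CPM in ileum WT. In colon Δchat it was at 375, 423, 492 and 515 CPM, and in colon WT at 463, 729, 922 and 460.5 CPM. The mean was lowest in ileum Δchat, and the 3 lowest libraries of all 16 were its replicates 2, 1 and 4. *C4b* was at 69.1, 85.4, 308 and 118 CPM in ileum Δchat and at 461, 295, 408 and 369 CPM in ileum WT, against 82.5 to 217 CPM in colon Δchat and 143 to 362 CPM in colon WT. The log2 differences of *C3*, ileum over colon, were -1.08 with Δchat and 0.14 with WT. Those of *C4b* were -0.045 and 0.40 in the same order. With Δchat, *C3* stood at -1.88 without ileum Δchat replicate 3 and at -0.090 with the fibroblast score as a covariate, and *C4b* at -0.74 and 0.87 under the same alternatives. The sign for *C4b* was positive in 7 and negative in 8 of 15 alternatives. *C4b* has a near-identical copy, *C4a*, at 2.41 to 6.20 CPM on average in a group, and the split of reads between the copies is uncertain. Ileum over colon, *C4a* differed by 0.69 with Δchat and 1.18 with WT on the log2 scale. It was called higher only with WT, where edgeR called 13.7% of all genes higher.

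Taking all 9 genes, ileum lay above colon without overlap for 5 with Δchat (*C6*, the 3 C1q genes and *C2*), where 9.38% of the 15198 genes tested did so, and for 6 with WT (*Cfb* in addition), where 16.3% did. These counts restate how the genes were chosen, so nothing is read from them. No member was lower in ileum without overlap, where 6.09% of all genes were with Δchat and 18.6% with WT. In the order of the group means, *C6* ran from ileum WT over ileum Δchat and colon WT to colon Δchat, and the only neighbours without overlap were ileum Δchat and colon WT. For *C3*, *C4b* and *C7* the order ran from ileum WT over colon WT and colon Δchat to ileum Δchat, and all neighbours overlapped.

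The strain was compared in the ileum, where no member passed the test. The edgeR quasi-likelihood test called 3 of 14496 genes (0.0207%) at an adjusted p under 0.05, and 0 of the 9 members; 3 members, *C2*, *C3* and *C4b*, had an unadjusted p under 0.05, where 10.9% of all genes did. DESeq2 called 2 members, and 374 of 14467 genes (2.59%). *C3* averaged 214 ± 186 CPM in ileum Δchat and 709 ± 215 CPM in ileum WT (SD, n = 4 each), a log2 difference of -1.74 ± 0.58 (SE, edgeR adjusted p = 0.334). *C4b* averaged 145 ± 110 CPM in ileum Δchat and 383 ± 70.0 CPM in ileum WT, a log2 difference of -1.41 ± 0.48 (edgeR adjusted p = 0.341; DESeq2 0.0363). *C2* averaged 7.65 ± 2.20 CPM in ileum Δchat and 13.3 ± 2.32 CPM in ileum WT, a log2 difference of -0.82 ± 0.22 (edgeR adjusted p = 0.23; DESeq2 0.0308).

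*C2* and *C3* were the 2 members whose ileal strain groups did not overlap, both lower with Δchat, where 3.34% of all genes were lower without overlap. *C7* differed by -1.28 ± 0.63 on the log2 scale, *C6* by -0.67 ± 0.36, *Cfb* by -0.39 ± 0.28, and *C1qa*, *C1qb* and *C1qc* by 0.28 ± 0.43, 0.30 ± 0.45 and 0.20 ± 0.41 (SE; edgeR adjusted p between 0.509 and 0.888). For *C6* the groups overlapped, since ileum Δchat replicate 2, at 29.4 CPM, lay within the ileum WT range of 20.3 to 31.1 CPM. Within ileum Δchat, *C6* kept the order of the macrophage sum, which was 733, 2411, 1125 and 563 CPM in replicates 1 to 4, and the reverse order of the epithelial sum, which was 267, 67.0, 192 and 417 CPM. In ileum WT the macrophage sum was 1095, 890, 1123 and 1216 CPM and the epithelial sum 273, 221, 77.6 and 80.9 CPM, and *C6* followed neither order throughout. The part of these cells in the *C6* values was not tested. With 4 libraries and many marker lists, such an order can also arise by chance.

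Fibroblast markers moved with *C3*, *C4b* and *C7* in ileum. Their sum was 1150, 884, 6412 and 2410 CPM in ileum Δchat replicates 1 to 4, against 4122 to 6656 CPM in ileum WT, and 8 of 8 were lower on average with Δchat. Replicate 3, the one Δchat ileum at the WT level of these markers, also had the group's highest *C3*, *C4b* and *C7*. Without it, *C3* differed by -2.56 ± 0.36 (SE; edgeR adjusted p = 0.0308) and *C4b* by -2.11 ± 0.23 (edgeR adjusted p = 0.0226), and both were called, in a fit that called 247 of 14575 genes (1.69%). With the fibroblast score as a covariate, the log2 differences were -0.69 ± 0.18 for *C3*, -0.56 ± 0.21 for *C4b* and -0.15 ± 0.18 for *C7* (SE). Under it *C2* stood at -0.81 ± 0.32 and *C6* at -0.90 ± 0.52. None of these was called with the covariate (edgeR adjusted p from 0.521 for *C3* to 0.906 for *C7*). *C3* per unit of the fibroblast sum was 0.0848 ± 0.0145 in ileum Δchat and 0.127 ± 0.0198 in ileum WT, with ranges that overlapped (SD, n = 4 each).

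In the colon the strain groups overlapped for each of the 9 members, where 3.72% of all genes were higher and 3.59% lower without overlap. The edgeR test called 1 of 14660 genes (0.00682%) and 0 of the 8 members tested; *C6* was left out by the filter on low counts. Of these 8, *C1qa*, *C1qb*, *C1qc* and *C4b* had an unadjusted p under 0.05, where 13.3% of all genes did, and DESeq2 called 0 members and 2.27% of all genes. Here the C1q chains had the highest positive values: *C1qa* averaged 106 ± 37.2 CPM in colon Δchat and 61.2 ± 10.5 CPM in colon WT (SD, n = 4 each), a log2 difference of 0.80 ± 0.24 (SE, edgeR adjusted p = 0.313). *C1qb* differed by 0.77 ± 0.24 and *C1qc* by 0.68 ± 0.26. All 10 macrophage markers had positive differences as well, with a median of 0.80. Other cell types moved too: 10 of 10 epithelial markers had positive differences (median 3.22), with sums of 240.1 to 3369 CPM in colon Δchat and 45.5 to 204 CPM in colon WT, and 5 of 5 plasma cell markers had negative ones (median -1.03). The part of these cells in the C1q values was not tested. C1q per unit of the macrophage sum was 0.622 in colon Δchat and 0.618 in colon WT. *C4b* averaged 150 ± 56.4 CPM in colon Δchat and 290 ± 102 CPM in colon WT, a log2 difference of -0.93 ± 0.36 (SE, edgeR adjusted p = 0.342). *C3* differed by -0.50 ± 0.24, *C7* by -0.19 ± 0.36, *C2* by -0.17 ± 0.23 and *Cfb* by 0.11 ± 0.24 on the log2 scale (edgeR adjusted p between 0.394 and 0.863).

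The strain effect of no member differed between tissues by the test. In 1 edgeR fit of 16 libraries the difference of the effects, ileum minus colon, called 9 of 15198 genes (0.0592%) and 0 of 9 members, 0 of which had an unadjusted p under 0.05, where 7.72% of all genes did, and DESeq2 called 0 members and 0.401% of all genes. All 9 estimates were below 0, where 7161 of all 15198 genes were. The C1q genes moved together, as did *C3*, *C4b* and *C7* in ileum, so the 9 are not separate observations. The values were -1.22 ± 0.63 for *C3*, -1.07 ± 0.76 for *C7*, -0.62 ± 0.32 for *C2* and -0.32 ± 0.64 for *C6* (SE). The rest lay between -0.48 and -0.43 (edgeR adjusted p from 0.637 to 0.868 over the 9). *C6* entered this fit through its ileal counts, as the filter on low counts left it out of the colon fit. Its colon part rests on 24 counts with Δchat and 28 with WT, so nothing is read from its value. The same fit with the mouse as a replicate block called 3 genes.

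**Figure D3:**
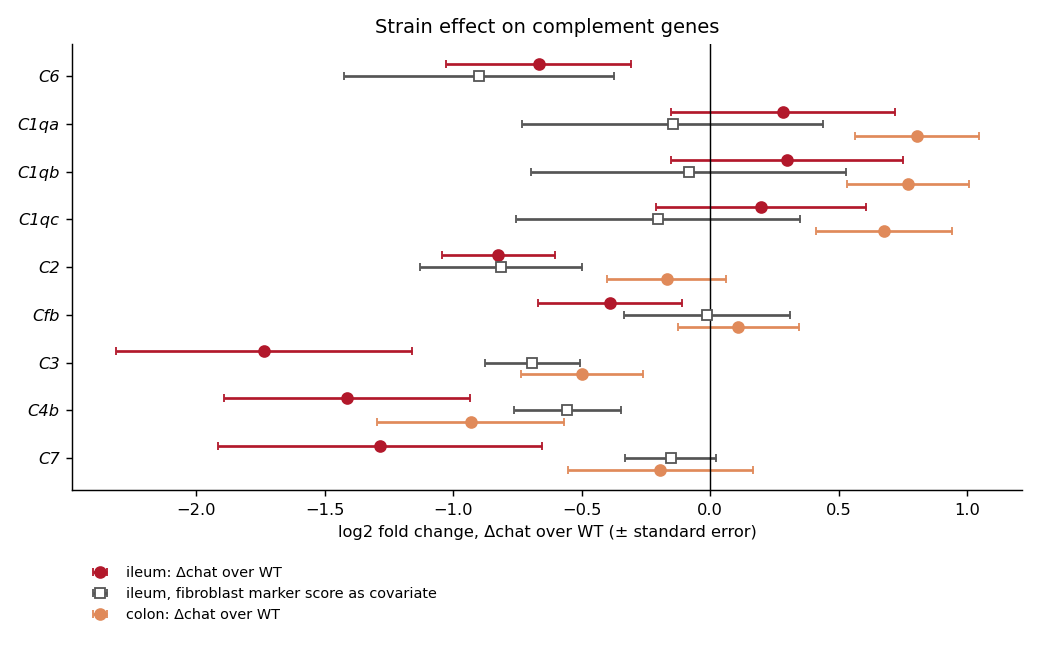
Log2 difference Δchat over WT with its SE for each member, in ileum (red), in ileum with the fibroblast score as a covariate (open squares) and in colon (orange). *C3*, *C4b* and *C7* lie at -1.74, -1.41 and -1.28 in ileum and at -0.69, -0.56 and -0.15 with the covariate; no point is called.

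Other complement genes were listed by role: 44 were named, 43 were in the table and 26 to 29 could be tested. Neither strain comparison called one with edgeR. In ileum the median log2 difference was -0.15 over 26 genes, beside 0.01 over all genes tested, and in colon 0.04 over 28 genes, beside 0.01. At an unadjusted edgeR p under 0.05 was 1 of the 26 genes in ileum, *Vtn*, where 10.9% of all genes were. In colon 4 of the 28 were, *Vtn*, *Cd55*, *Itgam* and *Itgax*, where 13.3% of all genes were. *Vtn*, vitronectin, an inhibitor of the attack complex, averaged 15.1 ± 3.84 CPM in ileum Δchat and 8.26 ± 2.23 CPM in ileum WT (SD, n = 4 each), a log2 difference of 0.85 ± 0.23 (SE, edgeR adjusted p = 0.252), and in colon it differed by 0.56 ± 0.21. The C1 proteases *C1ra* and *C1s1*, which act beside C1q, were at 63.2 and 101 CPM in ileum Δchat and at 109 and 149 CPM in ileum WT, with log2 differences of -0.80 ± 0.37 and -0.57 ± 0.34. The C1 inhibitor *Serping1* differed by -0.68 ± 0.37 in ileum, and clusterin, *Clu*, by 0.23 ± 0.18. Ileum Δchat replicate 3 was the Δchat ileum at the WT level of fibroblast markers, and without it the fit called 1.69% of all genes. Other complement genes called lower in that fit included *C1ra* at -1.31 ± 0.18, *Serping1* at -1.21 ± 0.17 and *C1s1* at -1.05 ± 0.13 (SE, edgeR adjusted p from 0.0261 to 0.0274). With the fibroblast score as a covariate and all 8 libraries, these genes stood at -0.082, 0.025 and 0.079.

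Between tissues, most complement receptors were higher in ileum. Of 29 other complement genes tested with Δchat, 7 were called higher in ileum and 2 lower, beside 8.31% and 5.03% of all genes, with a median log2 difference of 0.14 beside -0.02 over all genes tested. The 7 were receptors, out of 9 receptors tested. *Itgam*, a chain of the receptor for cleaved C3, averaged 97.0 ± 49.5 CPM in ileum Δchat and 37.3 ± 4.96 CPM in colon Δchat, a log2 difference of 1.38 ± 0.25 (edgeR adjusted p = 0.00315). *C3ar1*, the C3a receptor, averaged 72.2 ± 44.9 CPM in ileum Δchat and 20.7 ± 6.53 CPM in colon Δchat (1.80 ± 0.37, edgeR adjusted p = 0.00614). *C5ar1* and *C5ar2*, receptors for C5a, rose by 1.39 ± 0.37 and 1.58 ± 0.48, *Itgax* by 1.02 ± 0.27, *Cd93* by 0.47 ± 0.12 and *Itgb2* by 0.42 ± 0.13 on the log2 scale. The 2 lower genes were *Fcna*, a ficolin of the lectin pathway (-2.63 ± 0.60), at 0.114 CPM in ileum Δchat and 0.724 CPM in colon Δchat, and *Cd55*, a brake on the C3 convertases (-0.63 ± 0.20, edgeR adjusted p = 0.0491). Without ileum Δchat replicate 2, which had the highest macrophage sum, 2 of the 29 were called higher, and with the fibroblast score as a covariate 4. *Cd55* missed the threshold in 9 of 15 alternatives (edgeR and DESeq2 adjusted p up to 0.146), *C5ar2* in 9 and *Itgb2* in 7. *Itgax* missed it in 5 of 15, and *C5ar1* and *Cd93* in 4 each. *Fcna* missed it in 1 of 14, while *Itgam* and *C3ar1* were called in all 15.

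With WT, 9 of the 29 were called higher in ileum and 2 lower, beside 13.7% and 15.1% of all genes, with a median of 0.31 beside -0.04. *Itgam* averaged 120.1 ± 21.2 CPM in ileum WT and 24.0 ± 2.18 CPM in colon WT, a log2 difference of 2.32 ± 0.26 (edgeR adjusted p = 0.000105). *C3ar1*, *C5ar1*, *Itgax* and *Cd93* rose by 2.23 ± 0.38, 2.02 ± 0.38, 1.49 ± 0.28 and 0.66 ± 0.12 on the log2 scale. *Masp1*, a protease of the lectin pathway, averaged 19.3 CPM in ileum WT and 7.52 CPM in colon WT (1.35 ± 0.28), and properdin, *Cfp*, which steadies the alternative convertase, 55.3 and 29.9 CPM in the same order (0.89 ± 0.19). *Cd55* fell by 1.01 ± 0.20. *Cr2*, the receptor for C3d on B cells and follicular dendritic cells, averaged 42.7 CPM in ileum WT and 268 CPM in colon WT (-2.65 ± 0.62, edgeR adjusted p = 0.00807). The summed B cell markers were 412 to 807 CPM in ileum WT and 1481 to 2698 CPM in colon WT. Of 4 follicular dendritic cell markers, *Cr2* included, 3 were lower in ileum WT and 1 higher (median log2 difference -2.38). Macrophage markers were also higher in ileum, by the ranges given beside C1q. Endothelial markers were higher too, 5 of 5 in both colonizations, with median log2 differences of 0.58 with Δchat and 0.86 with WT. T cell and plasma cell markers were likewise higher (5 of 5 each), while B cell (5 of 5) and smooth muscle markers (6 of 6) were lower. The part of these cells in the receptor differences was not tested.

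**Figure D4:**
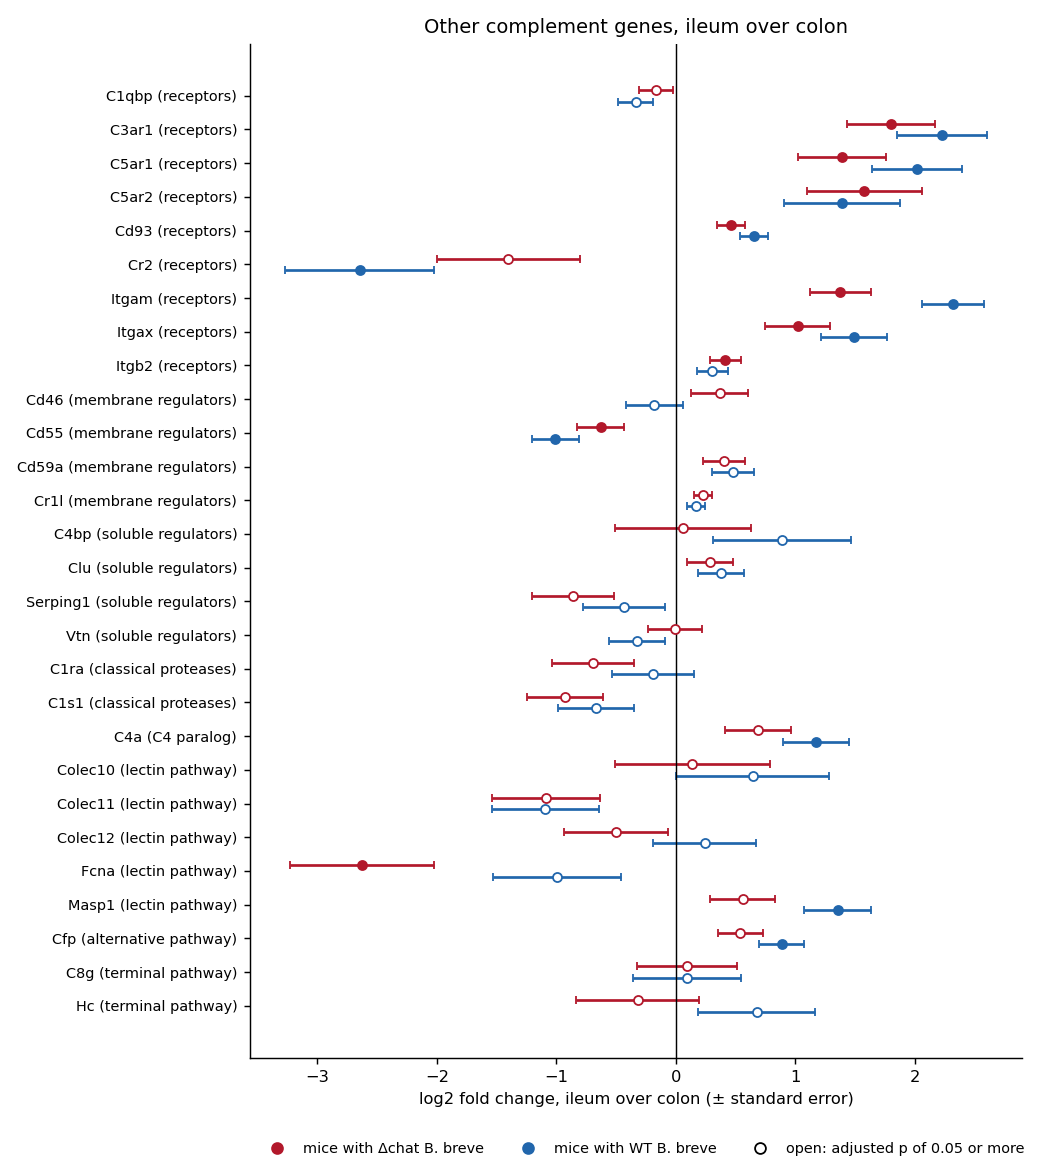
Log2 difference ileum over colon with its SE for other complement genes tested, by role, with Δchat and with WT; filled points passed an adjusted p under 0.05. *Itgam* and *C3ar1* lie at 1.38 and 1.80 with Δchat and at 2.32 and 2.23 with WT, while *Cd55* lies below 0 in both.

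The genes whose log2 CPM was most like a member over the 16 libraries were ranked among 13080 genes, as a description over libraries that share a tissue contrast. For *C6* they were *Gzma*, a granzyme of cytotoxic lymphocytes (r = 0.980), *Ccr9*, a gut-homing chemokine receptor (0.978), *Ndst1*, a heparan sulfate enzyme (0.978), and *Dtx4*, a ubiquitin ligase (0.973). Within the 8 ileum libraries the same 4 genes had r of 0.674, 0.485, 0.789 and 0.853, and within the 8 colon libraries 0.229, 0.609, 0.540 and -0.021, so the likeness to *C6* rests largely on the gap between tissues. For the mean of the C1q genes they were *Csf1r*, the receptor for a macrophage growth factor (r = 0.991), *Fcer1g* (0.990), *Ms4a7* (0.990) and *Fcgr4* (0.989), with r of at least 0.973 within ileum and 0.923 within colon. For *C3* they were *Clec11a* (0.970), the collagen-binding integrin *Itga11* (0.962), *Pi16* (0.961) and decorin, *Dcn* (0.960), with r of at least 0.968 within ileum and 0.839 within colon. *Csf1r* and *Ms4a7* belong to the macrophage list used above, and *Pi16* and *Dcn* to the fibroblast list.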

How the data were processed

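The table deposited by the authors held estimated counts per gene, made with cutadapt 5.0 and Salmon 1.4.0 on build GRCm39, per the submitters' processing notes; the annotation release is not given in the sources used here. Estimated counts were rounded to whole numbers. Of 35647 Ensembl identifiers, 35105 were paired with a symbol through a table of gene names; no row was left out. The 9 complement genes were taken by symbol, and they and the lists of other complement genes and markers were chosen with earlier results of these data known.

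Each library was placed by its title and no library was left out. No pair of replicates was a copy of another (chi-square per degree of freedom at least 26.8). Strains were set against each other per tissue, 8 libraries a fit, with edgeR 4.0.16 in R 4.3.3 (filterByExpr, TMM, robust quasi-likelihood, two-sided). Benjamini-Hochberg adjustment ran over every gene in the fit, and a gene with an adjusted p below 0.05 was called. The tissues, and the difference of strain effects between tissues, were compared in 1 fit of 16 libraries. That fit held no term for the mouse, so it treated colon and ileum libraries as independent. Printed CPM are TMM-scaled over all 16 libraries. Each SE of a log2 difference is its absolute value over the square root of the F statistic of the edgeR test. Only the fits for the strain in ileum and for the tissues with WT were tested on simulated data.

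The design names 4 mice per strain and both tissues, so colon and ileum libraries of 1 number were taken as 1 mouse in an alternative with a replicate block. Deviations from the group mean of such pairs correlated at -0.17 to 0.27 over 8 pairs. Other alternatives were RLE factors, no filter, a filter of 1 CPM in 4 libraries, DESeq2 1.42.0, an epithelial or fibroblast marker score as a covariate, 1 fit over 16 libraries, and each library left out. The text names all 9 genes in each comparison, of the other complement genes up to 6 called per direction and up to 3 of highest level per role (1 item is not reported here), and the 4 genes most like *C6*, C1q and *C3* by Pearson r. Promoter sequences came from RefSeq (GRCm38.p6), for 5 of the 9 genes; matches were sought in 250 bases before the start.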

Additional observations from a re-analysis of the deposited data

Results flagged for a closer look

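The 3 C1q genes stood apart in 1 ileum WT library. In ileum WT replicate 2, *C1qa* was at 211 CPM, *C1qb* at 206 CPM and *C1qc* at 156 CPM, each far below the other 3 ileum WT libraries, which lay close together at 313 to 319.6, 292 to 299 and 210.4 to 217 CPM. The gap exceeded Dixon's 95% critical value in 3 of 36 groups of 4 libraries examined, and chance flags about 1 in 20 such groups. The 3 genes moved together, so they are not 3 separate observations. The summed macrophage markers were also lowest there within ileum WT, at 890 CPM, and their part was not tested.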

How the results depend on the processing

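Counts of called genes depended on the tool, the scaling and single libraries. For the strain in colon (1 gene called), DESeq2 called 313 genes, the epithelial covariate 2, the fibroblast covariate 19 and 1 fit over 16 libraries 10, and leaving out 1 library gave 0 to 3. In ileum (3 genes), RLE factors gave 0, no filter 5, the 1 CPM filter 0, DESeq2 374, the epithelial covariate 1, the fibroblast covariate 0, 1 fit over 16 libraries 42, and leaving out 1 library 0 to 247, the highest without Δchat replicate 3. The difference of the strain effects (9 genes) gave 58 with DESeq2, 0 with the fibroblast covariate and 0 to 35 with a library left out. Ileum over colon with Δchat (2028 genes) gave 1221 with the fibroblast covariate and 1315 to 2177 with a library left out, and with WT (4380 genes) 2606 to 4160. The members called in ileum numbered 2 with DESeq2 and 0 to 2 with a library left out. Of the other complement genes, DESeq2 called *Itgam* higher and *Cd55* lower in colon (1 and 1) and *Vtn* higher in ileum (1); 0 to 4 were lower in ileum and 0 to 1 in the difference of effects with a library left out. Between tissues with Δchat, 4 were higher under either covariate and 2 to 8 with a library left out, while 1 was lower without a filter, with the 1 CPM filter and with the epithelial covariate, 0 with the fibroblast covariate and 1 to 6 with a library left out. With WT, 4 were lower under the fibroblast covariate. The cause was not tested.

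The replicate number as a block called 0 genes in colon and 0 in ileum, and turned *C1qc* to -0.027 and *Itgax* to -0.052 in ileum. Strains share only the numbers (deviations correlated at -0.27 to 0.32, and 2 of 16 libraries correlated best with their own number). The mouse as a block left 3 genes for the difference of effects.

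Among tested values, direction turned only where the threshold was missed. Of the tissue differences described without a test, *C4b* with Δchat spanned -0.74 to 0.87 and *C7* -1.32 to 0.71 over the alternatives, and *C3* with WT was -0.014 without ileum WT replicate 1. With the fibroblast covariate, *C7* in colon was 0.14, and in ileum *C1qa* was -0.15, *C1qb* -0.084, *C1qc* -0.20, *C1s1* 0.079, *Serping1* 0.025, *Cd93* 0.12, *Itgax* -0.27 and *Itgb2* -0.22, and *C4b* was 0.33 in the difference of effects. With the epithelial covariate, *Cfb* in colon was -0.40 and *Itgb2* 0.19. With a library left out, colon values spanned -0.42 to 0.088 for *C7*, -0.14 to 0.25 for *Cfb* and -0.14 to 0.051 for *Itgb2*. In ileum they spanned -0.30 to 0.53 for *C1qa*, -0.30 to 0.55 for *C1qb*, -0.36 to 0.43 for *C1qc*, -0.13 to 0.045 for *Cd93*, -0.35 to 0.22 for *Itgax* and -0.070 to 0.10 for *Itgb2*. Depth limits *C6* in colon, which rests on 3 to 10 counts per library. Protein comparisons were not run.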
